A study of Mus musculus with 16 samples.

Results

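The clustered protocadherins are the Pcdha, Pcdhb and Pcdhg genes, which lie in 3 neighbouring clusters on mouse chromosome 18. Members were all known genes whose symbol begins with Pcdha, Pcdhb, Pcdhga, Pcdhgb or Pcdhgc and ends in a number, which gave 58 gene identifiers of the 24960 known genes listed: 14 alpha, 22 beta and 22 gamma. The symbol Pcdha11 stands for 2 identifiers, ENSMUSG00000007440 and ENSMUSG00000102206, and both are counted. The C-type genes are 5 of these: Pcdhac1 and Pcdhac2 at the end of the alpha cluster and Pcdhgc3, Pcdhgc4 and Pcdhgc5 at the end of the gamma cluster.

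Full-length cDNA from cortex and striatum of male mice aged 3 months was sequenced on the PacBio Iso-seq platform, and each isoform was counted in reads. R6/2 mice carry a transgene of mutated human HTT exon 1 and model Huntington's disease (HD). Non-transgenic (NT) mice were the controls, and there were 4 samples each of cortex NT, cortex R6/2, striatum NT and striatum R6/2. Striatum NT 1 and 2 and striatum R6/2 2 and 3 came with 2 count sets that were added together, and all other samples had 1 count set. The R6/2 mice were of the strain B6CBA-Tg(HDexon1)62Gpb/3J and keep their own Htt genes beside the transgene. The study describes the samples as part of those used for its short-read sequencing, which were biological replicates. The labels themselves do not name the animals.

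Clustered protocadherins are cadherin-like proteins of the neuronal surface that bind mainly to matching protocadherins on another membrane, by which a neuron tells its own branches from those of other neurons. Each alpha and gamma gene has its own promoter and its own large variable exon, which encodes the extracellular and transmembrane parts and is spliced to constant exons that all genes of the cluster share. Beta genes consist of the variable exon only. Most of these genes are switched on in a scattered manner from neuron to neuron by looping of CTCF and cohesin to an enhancer, whereas C-type genes are expressed more evenly.

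In the annotation used here (GRCm38, GENCODE M21, plus strand), the alpha cluster spans positions 36930184 to 37187661 of chromosome 18, the beta cluster 37264938 to 37524479 and the gamma cluster 37661793 to 37841873. The 3 alpha constant exons measure 59, 89 and 2712 nucleotides and the 3 gamma constant exons 59, 89 and 1971 nucleotides. Pcdhac2 lies at 37143503 to 37187657, Pcdhb9 at 37400855 to 37403909, and Pcdhgc5, the gene next to the gamma constant exons, at 37819513 to 37841873.

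Depth limited what could be seen of single genes. Samples held 202664 to 1349108 reads on known genes, and the members together took 2454 of 9697336 reads, or 253 per 1000000 reads. A count of 0 over the 4 samples of a group allows up to 1.97 per 1000000 reads in cortex NT and 1.01 in striatum R6/2, with 3 reads as the limit, and this covers counting error only. Levels are given below in reads and in CPM, the counts per 1000000 reads of a library total scaled by the trimmed mean of M-values (TMM). Each read comes from 1 cDNA molecule, and CPM was not divided by length.

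Reads were found on 57 of the 58 members. The exception was Pcdha1, with 0 reads and 4 reads in the genomic class, the class of reads that run into introns or match the genome without splicing and that was left out of all counts unless stated. Only 5 members reached 100 reads: Pcdhgc5 with 340, Pcdhac2 with 243, Pcdhb9 with 154, Pcdhb7 with 117 and Pcdhgc3 with 114. A read was present in each of the 16 samples for 6 members, namely these 5 and Pcdha5, and 11 members had 1 to 9 reads over all samples. Pcdhgc5 ranked at place 4543 among the 21627 genes with a read. The alpha reads were concentrated on Pcdhac2, with 39.6% of them, and the gamma reads on Pcdhgc5, with 37.0%, while the most-read beta gene, Pcdhb9, took 16.7% of the beta reads.

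**Figure D1:**
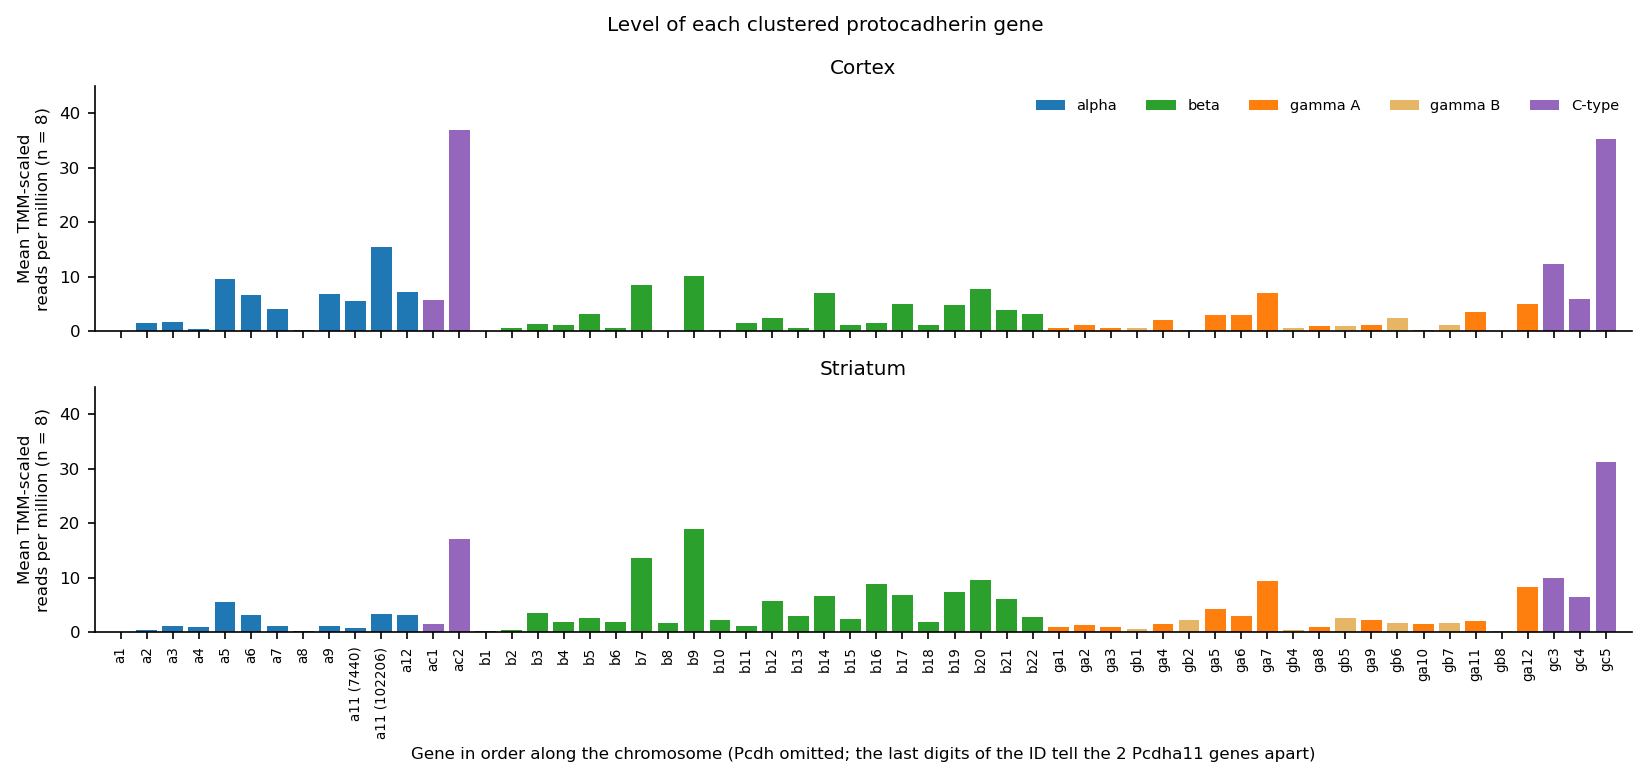
Mean level of each clustered protocadherin gene in cortex (upper panel) and striatum (lower panel), in TMM-scaled CPM over 8 samples of both genotypes, with genes in chromosomal order and coloured by group. The C-type genes Pcdhac2 and Pcdhgc5 stand above the others in cortex, and in striatum Pcdhgc5 leads, followed by Pcdhb9, Pcdhac2 and Pcdhb7.

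Long reads show which exons were joined, and the classes below follow the annotated exons of each isoform, not the length of each read. Of the 613 alpha reads, 83.2% were on known isoforms that join a variable exon of at least 2000 nucleotides to the constant exons. Of the 923 beta reads, 98.8% were on known single-exon isoforms, 2588 to 8695 nucleotides long as annotated. The gamma reads were more mixed. Of 918, 60.6% were on known isoforms that join a variable exon of at least 2000 nucleotides to constant exons. Another 14.6% were on known isoforms of the variable exon alone. Isoforms with a short opening exon before the constant exons took 13.4%, and an isoform that keeps the intron before the constant exons took 7.52%. The last 2 kinds were almost wholly Pcdhgc5. Of its 340 reads, 148 were on ENSMUST00000055935, annotated with a variable exon of at least 2000 nucleotides. Another 106 were on ENSMUST00000193941 and 15 on ENSMUST00000193890, whose opening exon measures only 147 nucleotides, and 69 on ENSMUST00000192875. The 2 junctions of that last isoform are also present in 25 of the 33 other known gamma isoforms, so its reads cannot be tied to Pcdhgc5 by their junctions. Reads on isoforms with fewer exons than the gene's most-exon known isoform made up 15.99% of alpha, 1.63% of beta and 24.7% of gamma reads.

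Beta genes were read more often in R6/2 than in NT striatum. The 22 genes together had 90.8, 81.7, 89.7 and 53.6 CPM in striatum NT 1 to 4, from 72, 105, 57 and 11 reads. They had 116, 155, 143 and 137 CPM in striatum R6/2 1 to 4, from 80, 150, 141 and 58 reads. All 4 R6/2 samples lay above all 4 NT samples. The group means were 78.9 ± 17.4 in NT and 138 ± 16.4 in R6/2 (SD, n = 4), a ratio of 1.75 or 0.81 on the log2 scale, against a counting SD of 12.04 and 14.1 CPM per sample. No p is given for sums over members, because these genes were chosen with results of the data known. The ratio was 1.77 among the striatal samples of 1 count set and 1.73 among those of 2 count sets. It was 1.91 without TMM scaling. Striatum NT 4, the shallowest striatal sample, had the lowest value, and without it the ratio was 1.58, still without overlap.

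**Figure D2:**
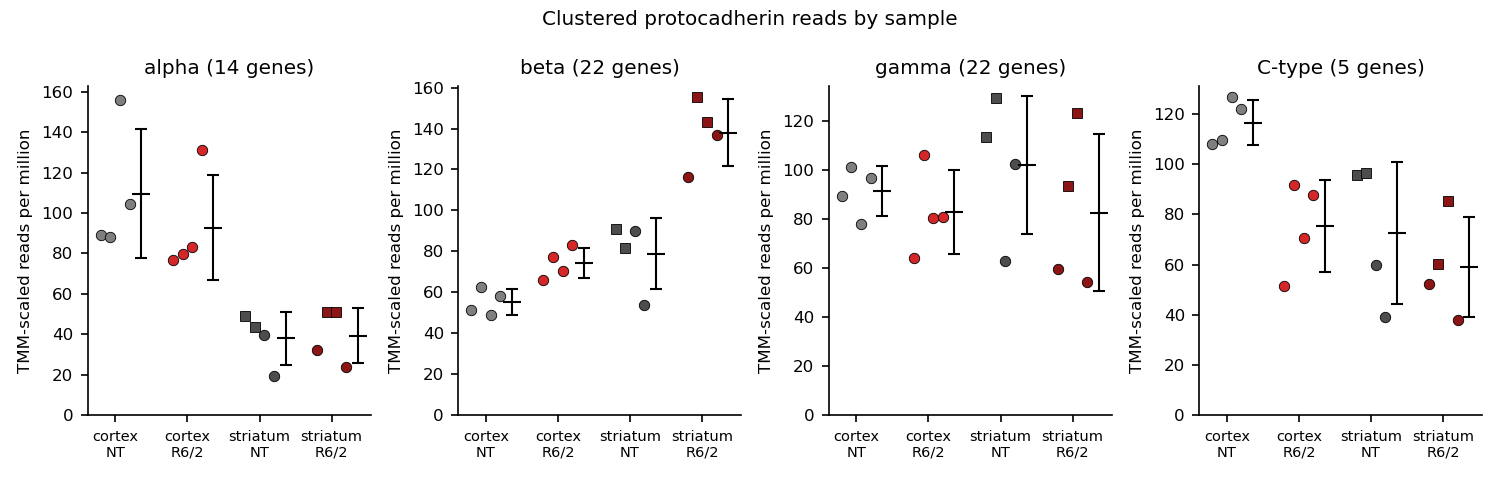
Reads of the alpha, beta, gamma and C-type genes in each sample, in TMM-scaled CPM; circles are samples of 1 count set, squares samples of 2 count sets, and the bar shows the mean ± SD of 4 samples. The beta values of striatum R6/2, 116 to 155, lie above all other groups, and both striatal groups lie below both cortical groups for alpha.

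The gene-by-gene values pointed the same way. In striatum 21 of the 22 beta genes had a higher mean CPM in R6/2, whereas 48.7% of all 20032 genes with a read in striatum did. The exception was Pcdhb1, whose 1 striatal read came from an NT sample; it is named for that reason alone. The genes share their libraries and are not independent. Among the 17 beta genes with over 3 reads in both groups, the log2 ratio of the mean CPM ran from 0.00 to 1.70 with a median of 0.96.

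**Figure D3:**
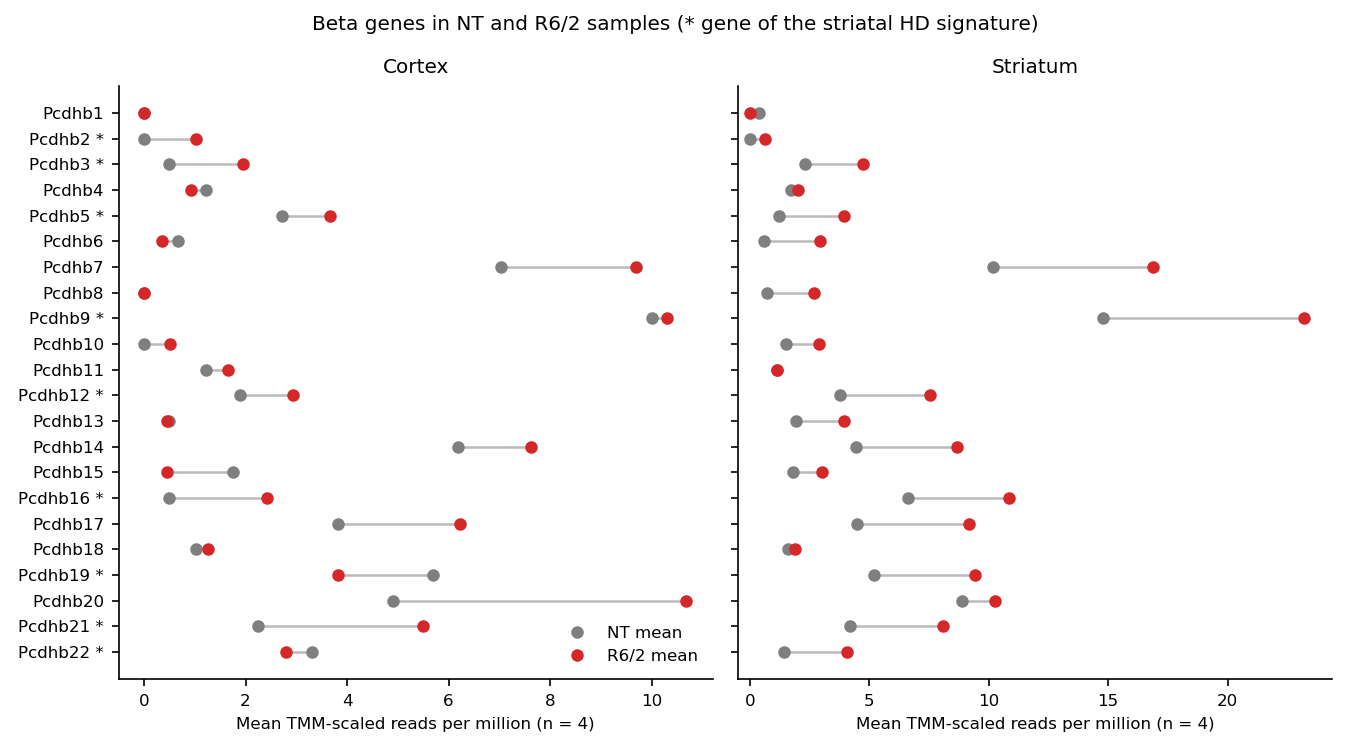
Mean TMM-scaled CPM of the 22 beta genes in NT (grey) and R6/2 (red) samples of cortex (left) and striatum (right), n = 4 each; asterisks mark the 9 genes of the striatal HD signature. In striatum the R6/2 mean is the higher for 21 of 22 genes, and in cortex for 14 of the 20 genes with a read.

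Of the beta genes, 9 belong to a striatal HD signature that others drew from several mouse models, where each is listed as higher in HD: Pcdhb2, Pcdhb3, Pcdhb5, Pcdhb9, Pcdhb12, Pcdhb16, Pcdhb19, Pcdhb21 and Pcdhb22. All 9 had a higher mean in R6/2 striatum. The study had already reported the signature as altered, nearly always in the listed direction, in its short-read data of striatum. The samples here are described as part of those, so these values are not independent of that result. Their sum was 53.0, 33.4, 42.5 and 29.2 CPM in striatum NT 1 to 4 and 62.5, 77.7, 60.0 and 89.6 CPM in striatum R6/2 1 to 4, with no overlap and a ratio of 1.83. The 13 other beta genes had a ratio of 1.66 with overlap, since striatum R6/2 4, at 47.2 CPM, was below the highest NT sample at 48.2. The difference between these ratios was not tested.

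Pcdhb9, the most-read beta gene, had 15, 17, 11 and 2 reads in striatum NT and 13, 28, 21 and 10 in striatum R6/2. As CPM these were 18.9, 13.2, 17.3 and 9.74 against 18.9, 29.0, 21.3 and 23.6, so striatum R6/2 1 met the highest NT sample. It was the single beta gene deep enough for the test across all genes, and its log2 fold change of 0.58 (SE 0.28) did not pass (adjusted p = 0.308, edgeR quasi-likelihood test with Benjamini-Hochberg adjustment). Pcdhb7 had means of 10.2 ± 4.03 CPM in NT and 16.9 ± 8.04 in R6/2, and Pcdhb20 8.89 ± 3.80 and 10.2 ± 2.74 (SD, n = 4), with overlap for both.

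The groups did not overlap in striatum for 2 members. Pcdhb5 had 2.52, 0.778, 1.57 and 0 CPM in NT and 2.91, 4.15, 4.07 and 4.72 in R6/2. Pcdhb22 had 2.52, 1.56, 1.57 and 0 CPM in NT and 4.36, 4.15, 3.05 and 4.72 in R6/2. Each of these values rests on 0 to 4 reads. Of the 7658 genes tested in striatum, 1.82% were higher and 4.28% lower in R6/2 without overlap, and 0 members were lower in that way, and most of the 58 members lie below the count minimum that those genes passed. The rest of the signature genes had overlapping groups. Their NT and R6/2 means were 2.31 and 4.72 CPM for Pcdhb3, 3.77 and 7.54 for Pcdhb12, 6.63 and 10.8 for Pcdhb16, 5.22 and 9.40 for Pcdhb19, and 4.17 and 8.10 for Pcdhb21. Pcdhb2 was seen in 2 reads of R6/2 striatum and in none of NT striatum.

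Under the test across all genes, 0 of the 3 members tested in striatum (Pcdhb9, Pcdhgc5 and Pcdhac2) were called by edgeR, and 0 had an unadjusted p under 0.05. DESeq2 also called 0. Of the 7658 genes tested, 0.496% were called higher and 3.84% lower. With no filter on low counts, 57 members entered the edgeR test and 0 were called, 3 of them with an unadjusted p under 0.05: Pcdhb6, Pcdhb7 and Pcdhb12, all with the higher level in R6/2. That share of members was below the 11.01% of all 20032 genes with such a p. In cortex 6 of 54 members had one without a filter, beside 10.3% of all genes, and 0 were called by edgeR. Pcdhb6 is outside the rule for named genes.

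The summed markers of striatal projection neurons were lower in the same R6/2 samples. The sum over that list (9 of 9 genes with a read) ran from 10097 to 13855 CPM in striatum NT and from 1893 to 3272 in striatum R6/2. That of the interneuron list (Gad1, Gad2, Pvalb, Sst, Vip and Npy, 6 of 6 with a read) ran from 1012 to 1237 and from 655 to 755. Gad1 and Gad2 are also expressed in the GABAergic projection neurons, so in striatum this sum is not specific to interneurons. Only sums over each list are given, not the direction of each gene. The ranges of oligodendrocyte markers (12494 to 29562 and 12494 to 18663 CPM, 5 of 5 genes), astrocyte markers (278 to 768 and 337 to 606, 5 of 5), microglial markers (175 to 336 and 203 to 361, 5 of 5) and endothelial markers (87.6 to 134 and 84.3 to 133, 3 of 3) overlapped. Choroid plexus markers ran from 53.0 to 9231 CPM in NT (5 of 5 genes with a read) and from 91.6 to 309 in R6/2 (4 of 5, with Kl at 0). The 4 cortical excitatory markers reported here ran from 0 to 40.3 CPM in NT and from 6.10 to 37.7 in R6/2. The part of these lists in the beta result was not tested. In tissue, fewer cells of a type and less RNA per cell cannot be told apart. Known single-exon isoforms of all genes, the structure of the beta genes, took 5.13 to 15.9% of known-isoform reads in striatum NT and 6.29 to 12.5% in striatum R6/2.

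In cortex the beta sum differed by less. It was 51.4, 62.4, 48.8 and 58.0 CPM in cortex NT 1 to 4 and 65.9, 77.4, 70.6 and 83.0 CPM in cortex R6/2 1 to 4, again without overlap. The means were 55.2 ± 6.23 and 74.2 ± 7.50 CPM (SD, n = 4), a ratio of 1.35, and the gap between the highest NT and the lowest R6/2 sample was smaller than the counting SD of 12.5 CPM per NT sample. Of the 20 beta genes with a read in cortex, 14 had the higher mean in R6/2, beside 50.6% of all 19059 genes with a read there. Pcdhb20 was higher without overlap, at 5.41, 6.46, 0 and 7.74 CPM in NT and 9.16, 8.15, 13.8 and 11.5 in R6/2. Pcdhb9 had 10.0 ± 4.42 and 10.3 ± 2.75 CPM.

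C-type genes went the other way in cortex. Their sum was 108, 110, 127 and 122 CPM in cortex NT 1 to 4 and 51.3, 91.7, 70.6 and 87.6 CPM in cortex R6/2 1 to 4, with every R6/2 sample below every NT sample. The means were 117 ± 9.09 and 75.3 ± 18.4 CPM (SD, n = 4), a ratio of 0.645. All 5 genes had the lower mean in R6/2. As a share of alpha and gamma reads, which does not depend on the scaling of libraries, C-type genes made up 54.2 to 60.6% in cortex NT and 36.4 to 49.5% in cortex R6/2. The interval of a single sample is wide: 40.3 to 67.4% for cortex NT 3, from 26 of 48 reads, and 39.4 to 59.5% for cortex R6/2 2, from 45 of 91 reads (95% Wilson intervals). In striatum the shares overlapped, at 32.0 to 58.9% in NT and 41.7 to 57.1% in R6/2.

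Pcdhgc5, a C-type gene expressed in mature neurons, was the most-read C-type gene. It had 46.0, 53.8, 29.3 and 50.3 CPM in cortex NT 1 to 4, from 17, 25, 6 and 26 reads. In cortex R6/2 1 to 4 it had 23.8, 26.5, 24.9 and 27.7 CPM, from 13, 13, 18 and 12 reads. All R6/2 values were below all NT values, with means of 25.7 ± 1.70 and 44.8 ± 10.9 CPM (SD, n = 4). In the edgeR test its log2 fold change was -0.86 (SE 0.27), with an adjusted p = 0.0909, so it was not called. It was called lower, at adjusted p = 0.0352, once genomic-class reads were counted, and at adjusted p = 0.0422 without cortex NT replicate 3, the shallowest sample. DESeq2 gave an adjusted p = 0.255. Most genomic-class reads of Pcdhgc5 were on an unspliced isoform, with no junction to tie them to the gene. Counted reads on ENSMUST00000192875 cannot be tied to it by junctions either, and no test of Pcdhgc5 left them out.

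Pcdhac2, the alpha C-type gene that serotonergic axons need for their spacing, had 29.8, 32.3, 63.4 and 44.5 CPM in cortex NT and 18.3, 36.7, 33.2 and 36.9 CPM in cortex R6/2, with overlap (log2 fold change -0.36, SE 0.30, adjusted p = 0.585, edgeR). Of 3 serotonergic markers, Slc6a4 and Fev had 0 reads in all groups, and the summed level ran from 0 to 2.70 CPM in cortex NT and from 1.38 to 6.11 in cortex R6/2. That sum is Tph2 alone, on few reads, and says nothing about serotonergic axons. Pcdhac1 was lower without overlap on few reads, at 8.11, 6.46, 14.6 and 7.74 CPM in NT and 3.66, 2.04, 0 and 2.31 CPM in R6/2, 13 reads against 4. With genomic-class reads its groups overlapped. Pcdhgc3 had means of 12.5 ± 4.12 and 12.1 ± 6.14 CPM and Pcdhgc4 7.58 ± 3.73 and 4.23 ± 3.34, with overlap for both.

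**Figure D4:**
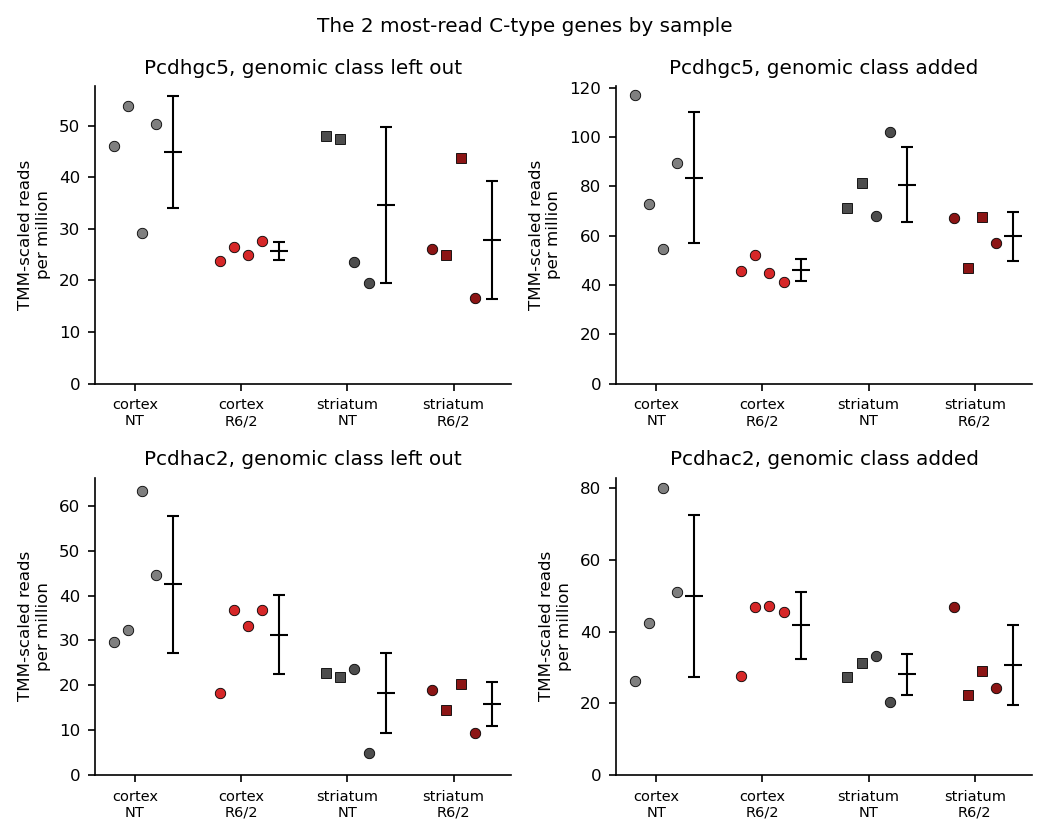
Pcdhgc5 (upper row) and Pcdhac2 (lower row) in each sample, in TMM-scaled CPM, without (left) and with (right) genomic-class reads; circles are samples of 1 count set, squares of 2, and bars the mean ± SD of 4 samples. Cortex R6/2 lies below cortex NT for Pcdhgc5 in both panels, at 23.8 to 27.7 against 29.3 to 53.8 on the left.

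In the same cortical samples, the 9 projection-neuron markers ran from 375 to 467 CPM in NT and from 95.7 to 130 in R6/2, the 6 interneuron markers from 634 to 828 and from 354 to 399, and the 5 astrocyte markers from 692 to 961 and from 518 to 606. The 4 cortical excitatory markers reported here overlapped, at 117 to 155 CPM in NT and 97.1 to 147 in R6/2. The ranges of oligodendrocyte markers (3369 to 6953 and 3445 to 5422 CPM), microglial markers (161 to 292 and 161 to 201), endothelial markers (114 to 233 and 128 to 200) and choroid plexus markers (17.2 to 955 and 31.1 to 1574) overlapped, all genes of these lists having a read in both groups. The part of these lists in the C-type values was not tested.

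Gamma reads outside the C-type genes were more numerous in R6/2 cortex. The 19 gamma A and gamma B genes had 18.9, 30.1, 29.3 and 27.1 CPM in cortex NT 1 to 4 and 34.8, 53.0, 42.9 and 32.3 CPM in cortex R6/2 1 to 4, a ratio of 1.55 without overlap. Isoforms of the variable exon alone, described below, held 5 of these 41 reads in NT and 28 of the 90 in R6/2. No ratio was computed without them. Once genomic-class reads were added, the groups overlapped and the ratio was 1.39. Pcdhga7, the most-read of the gamma A genes, had 0, 4.31, 4.88 and 5.80 CPM in NT and 10.99, 12.2, 8.31 and 9.22 CPM in R6/2, 6 reads against 22. In a test without a filter its log2 fold change was 1.38 (SE 0.66), with an edgeR adjusted p = 0.451. The whole gamma cluster, in which C-type genes were lower and the others higher, had overlapping groups, with means of 91.3 ± 10.1 and 82.8 ± 17.3 CPM.

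Gamma reads of R6/2 cortex were also more often on isoforms of the variable exon alone, which as annotated lack the constant exons. Reads on these isoforms hold no junction. Whether they stand for whole RNAs without constant exons was not tested. Such isoforms took 1 of 33, 4 of 47, 1 of 16 and 0 of 50 gamma reads in cortex NT 1 to 4. They took 8 of 35, 9 of 52, 10 of 58 and 10 of 35 in cortex R6/2 1 to 4. The shares were thus 0 to 8.51% in NT and 17.2 to 28.6% in R6/2, with no overlap. Pcdhga7 isoform ENSMUST00000193476, annotated at 3044 nucleotides, gave 3 of the 6 such reads in NT and 21 of the 37 in R6/2. Pcdhga7 had 6 and 22 counted reads in all, so its higher level in R6/2 cortex and this share rest largely on the same reads. The mean isoform length per cortical sample overlapped between the genotypes, at 1851 to 2101 nucleotides in NT and 1880 to 2034 in R6/2, and known single-exon isoforms of all genes took 5.27 to 7.72% of known-isoform reads in NT and 6.45 to 10.1% in R6/2. In striatum the share followed the count sets: 27.5 to 43.5% in the 4 samples of 1 set and 4.96 to 14.4% in the 4 samples of 2 sets, with both genotypes in each range.

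**Figure D5:**
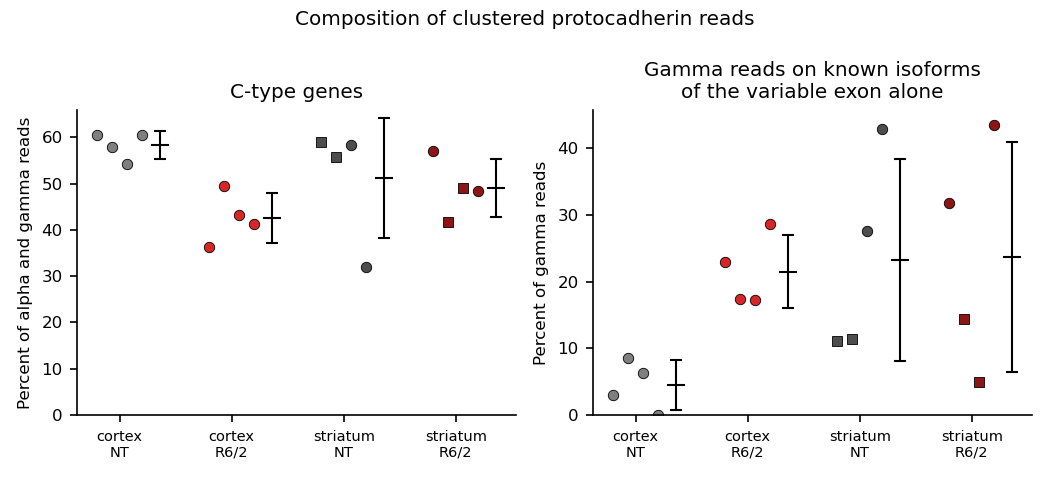
Left, C-type genes as a percent of alpha and gamma reads; right, known isoforms of the variable exon alone as a percent of gamma reads. Circles are samples of 1 count set, squares of 2, and bars the mean ± SD of 4 samples; the cortical groups are apart in both panels, at 54.2 to 60.6% against 36.4 to 49.5% on the left and 0 to 8.51% against 17.2 to 28.6% on the right.

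Among all 58 members in cortex, the groups did not overlap for 3 genes that were higher in R6/2 (Pcdha7, Pcdhb20 and Pcdhga7) and 3 that were lower (Pcdha2, Pcdhac1 and Pcdhgc5), while 3.61% and 6.44% of the 6121 genes tested were higher and lower in that way. As shares of the 58 members these counts are near the background, and most members lie below the count minimum that the background genes passed. Pcdha2 and Pcdha7 fall outside the rule for named genes and are named because their groups did not overlap. Their values rest on 4 against 0 and on 2 against 15 reads. Only 2 members were deep enough for the test, and edgeR called 0 of them, with 1 unadjusted p under 0.05, that of Pcdhgc5. DESeq2 called 0, and of all genes tested 0.457% were called higher and 2.76% lower.

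The alpha sums of the genotypes overlapped. Their sum was 89.3, 88.3, 156 and 104 CPM in cortex NT and 76.9, 79.4, 83.1 and 131 in cortex R6/2, and 49.2, 43.5, 39.4 and 19.5 CPM in striatum NT against 32.0, 50.8, 50.8 and 23.6 in striatum R6/2. The ratios of the means were 0.847 in cortex and 1.04 in striatum. In cortex the overlap rested on cortex R6/2 4, at 131 CPM, and without that sample the groups did not overlap and the ratio was 0.729. The gamma sums of striatum also overlapped, at 113, 129, 63.0 and 102 CPM in NT and 59.6, 93.3, 123 and 54.2 CPM in R6/2. Neither did Pcdhgc5 or Pcdhac2 pass the test in striatum, with log2 fold changes of -0.35 (SE 0.26, adjusted p = 0.54, edgeR) and -0.34 (SE 0.33, adjusted p = 0.676, edgeR). Their striatal CPM were 47.9, 47.4, 23.6 and 19.5 in NT against 26.2, 24.9, 43.7 and 16.5 in R6/2 for Pcdhgc5, and 22.7, 21.8, 23.6 and 4.87 against 18.9, 14.5, 20.3 and 9.43 for Pcdhac2.

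Alpha genes were lower in striatum than in cortex. All striatal values, 19.5 to 50.8 CPM, lay below all cortical values, 76.9 to 156 CPM. The striatal mean was 0.346 times the cortical mean in NT (37.9 ± 12.9 against 109 ± 31.9 CPM) and 0.424 times in R6/2 (39.3 ± 13.7 against 92.7 ± 25.9 CPM; SD, n = 4). The count sets moved the size: in NT the ratio was 0.269 with the striatal samples of 1 count set and 0.423 with those of 2, and in R6/2 it was 0.3 and 0.548. Alpha genes other than the C-type genes did not overlap either, at 12.6 to 25.2 CPM in striatum NT and 49.5 to 78.0 in cortex NT, and at 10.2 to 33.2 CPM in striatum R6/2 and 40.7 to 92.2 in cortex R6/2. The sum of the C-type genes was lower in striatum without overlap in NT (ratio 0.624), though not once genomic-class reads were added, and overlapped in R6/2.

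Cell-type markers also differed between the regions. Oligodendrocyte markers ran from 3369 to 6953 CPM in cortex NT and from 12494 to 29562 in striatum NT, and projection-neuron markers from 375 to 467 and from 10097 to 13855. The interneuron list, whose Gad1 and Gad2 are not specific to interneurons in striatum, ran from 634 to 828 and from 1012 to 1237. The 4 cortical excitatory markers ran from 117 to 155 and from 0 to 40.3. Their part in the alpha values was not tested.

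Named alpha genes differed in the size of the gap. Pcdha11 (ENSMUSG00000102206) had 18.9, 12.9, 29.3 and 7.74 CPM in cortex NT and 0, 3.89, 1.57 and 0 CPM in striatum NT. In R6/2 its groups overlapped, with 0 to 36.9 CPM in cortex. Of its 70 reads, 24 were on a single-exon fragment of 272 nucleotides that is an incomplete match to a known isoform. The other Pcdha11 gene (ENSMUSG00000007440) had 9 reads in cortex NT and 1 in striatum NT. Pcdha5 overlapped, at 5.80 to 10.8 CPM in cortex NT and 2.52 to 9.74 in striatum NT, and so did Pcdha6, at 4.31 to 9.75 and 0 to 7.56. Pcdha12 ran from 5.41 to 9.75 CPM in cortex NT and from 0 to 6.30 in striatum NT.

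In NT mice, 5 members were lower in striatum without overlap (Pcdha9, both Pcdha11 genes, Pcdhac1 and Pcdhac2) and 2 higher (Pcdhb16 and Pcdhgb2), where 8.84% of the 7390 genes tested were lower and 7.27% higher in that way. In R6/2 mice 2 were lower (Pcdha9 and Pcdha11 ENSMUSG00000007440) and 2 higher (Pcdhb8 and Pcdhb9), where 12.4% were lower and 8.7% higher. As shares of the 58 members these counts are no higher than the background, but most members lie below the count minimum that the background genes passed. Pcdha9, Pcdhgb2 and Pcdhb8 are outside the rule for named genes.

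The test across all genes called Pcdhac2 lower in NT striatum than in NT cortex (log2 fold change -1.11, SE 0.39, adjusted p = 0.0319, edgeR) and likewise Pcdhgc5 (-0.88, SE 0.30, adjusted p = 0.0286, edgeR), the 2 members tested. The fit held a term for the number of count sets, and samples of 2 sets occur in striatum only. These contrasts between regions therefore set cortex against striatum at 1 count set. The median of all genes in the NT comparison was -0.11, and the fold changes are given without subtracting it. In R6/2 mice Pcdhac2 was called lower (-1.06, SE 0.38, adjusted p = 0.0421, edgeR), and Pcdhgc5 was not (-0.35, SE 0.31, adjusted p = 0.429, edgeR). Of all genes tested, 15.8% were called higher and 17.6% lower in NT, and 12.9% and 14.4% in R6/2. The calls depended on the settings. Without a term for the number of count sets, with genomic-class reads, or in DESeq2, 0 members were called in either genotype. With no filter, or with at least 5 reads in at least 4 samples, neither Pcdhac2 nor Pcdhgc5 was called in either genotype, although other members were. Over the alternatives the adjusted p of Pcdhac2 ran from 0.0258 to 0.272 in NT and from 0.0182 to 0.511 in R6/2, and that of Pcdhgc5 in NT from 0.011 to 0.86 (edgeR and DESeq2). For Pcdhgc5 the raw means, which take in striatal samples of 1 and of 2 count sets, were 44.8 ± 10.9 CPM in cortex NT and 34.6 ± 15.2 in striatum NT, with overlap.

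Beta genes were higher in striatum than in cortex of R6/2 mice, with a ratio of 1.86 and no overlap, since the lowest striatal sample had 116 CPM and the highest cortical sample 83.0. In NT mice the ratio was 1.43 with overlap, because striatum NT 4, at 53.6 CPM, was within the cortical range of 48.8 to 62.4. Without that sample the ratio was 1.58, without overlap. Pcdhb16 was read mostly in striatum, with 13 reads in striatum NT and 1 in cortex NT, and 25 and 6 in R6/2. Its highest values, 14.6 and 25.9 CPM, were those of striatum NT 4 and striatum R6/2 4. Pcdhb9 had 18.9 to 29.0 CPM in striatum R6/2 and 6.92 to 12.8 in cortex R6/2.

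As a share of all member reads, the balance of the 3 clusters differed between regions and, for beta genes in cortex, between genotypes. Alpha genes made up 42.3 ± 8.84% in cortex NT, 36.9 ± 5.91% in cortex R6/2, 17.0 ± 4.19% in striatum NT and 14.8 ± 2.65% in striatum R6/2 (SD, n = 4), and the genotypes overlapped in both regions. Beta genes made up 21.7 ± 3.18%, 29.9 ± 1.56%, 36.3 ± 7.29% and 54.2 ± 7.75% in the same order. Gamma genes made up 36.0 ± 5.71%, 33.2 ± 5.51%, 46.7 ± 10.8% and 31.0 ± 5.74%, with overlap between the genotypes in both regions. The order of the group means for beta was the reverse of that for alpha. Within the beta order, striatum NT, at 30.6 to 46.7%, and cortex R6/2, at 28.1 to 31.9%, overlapped, as did striatum NT and striatum R6/2, at 45.2 to 63.7%.

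For the difference of the genotype effect between regions, 0 of the 2 members tested were called by edgeR, 0 with an unadjusted p under 0.05, and 0 by DESeq2, with 0.0406% of 7390 genes called. The log2 difference was 0.54 (SE 0.36, adjusted p = 0.881, edgeR) for Pcdhgc5 and 0.06 (SE 0.47, adjusted p = 1, edgeR) for Pcdhac2. Whether the beta or the C-type effect differs between cortex and striatum was not tested.

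The number of members seen grew with depth, from 18 in striatum NT 4 to 51 in striatum R6/2 2. At an equal depth of 202664 reads on known genes, 5.37 to 10.5 beta genes would be seen in striatum NT and 11.6 to 14.7 in striatum R6/2. These numbers come from the same reads as the beta sum and are no separate evidence. For alpha genes the numbers were 7.55 to 10.0 in cortex NT and 2.58 to 4.77 in striatum NT. The gamma genes overlapped in all 4 groups, at 6.07 to 10.5 in striatum NT and 4.84 to 10.8 in striatum R6/2.

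The remaining named gamma genes were too sparse to rank. Pcdhga12 had 69 reads, with means of 8.51 ± 1.76 CPM in striatum NT and 8.11 ± 6.59 in striatum R6/2. Pcdhga6 and Pcdhga11 had 32 reads each. Pcdhgb6 led the gamma B genes with 24 reads, followed by Pcdhgb5 and Pcdhgb7 with 15 each. In both regions the NT and R6/2 samples overlapped for all of them.

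Few genes that act on or with the clustered protocadherins passed the test. Of 19 genes of promoter choice and chromatin, such as Ctcf, the cohesin subunits and the DNA methyltransferases, 8 were deep enough to test in cortex and 11 in striatum, and 0 were called by edgeR, with 2 and 1 at an unadjusted p under 0.05, and DESeq2 called 0. Of 23 partner genes, 18 and 20 were tested. In cortex edgeR called 0, with 4 at an unadjusted p under 0.05, and DESeq2 called 0, and the 2 called in striatum, where DESeq2 called Cyfip2 but not Brk1, were both lower in R6/2, beside 3.84% of all genes tested. They were Cyfip2 (log2 fold change -0.77, SE 0.17, adjusted p = 0.0245, edgeR), at 111 ± 25.2 CPM in NT and 64.6 ± 20.4 in R6/2, and Brk1 (-0.62, SE 0.16, adjusted p = 0.0439, edgeR), at 257 ± 74.2 and 165 ± 28.9 CPM. Both are subunits of the WAVE complex, which drives actin branching and to which alpha protocadherins can bind. Of 22 non-clustered protocadherins and related large cadherins, 4 were tested in cortex and 5 in striatum, and 0 were called by edgeR, with 1 and 0 at an unadjusted p under 0.05, and DESeq2 called 0. The median log2 fold change of the partner list was -0.16 in striatum, beside -0.00 over all genes tested, and that of the promoter choice list was 0.18.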

How the data were processed

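RNA from cortex and striatum of R6/2 and NT mice was copied to full-length cDNA by template switching after digestion of uncapped RNA, amplified by PCR and sequenced as PacBio circular consensus reads. The authors mapped the reads to mm10 with minimap2 2.17-r941 (version from the submitters' processing notes), corrected them with TranscriptClean and assigned them with TALON. The deposited values are unfiltered counts of reads per isoform and sample, with no molecular identifiers, so PCR copies were counted and intervals cover counting error only.

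Counts of known, ISM (incomplete match), NIC and NNC (new combinations or splice sites) isoforms were summed per known gene. The genomic class was left out. Count sets of a sample were added, and 0 per-sample columns were unused. The members and lists were chosen with earlier results of these data known. Genotypes were compared within a region, and regions and their interaction in a fit of 16 samples, by the quasi-likelihood test of edgeR 4.0.16 in R 4.3.3 (TMM, filterByExpr with a minimum count of 10 and total of 15, and the number of count sets as a term where the fit held striatum), with Benjamini-Hochberg adjustment over all genes tested and a threshold of 0.05. DESeq2 1.42.0, other filters, read classes, scalings, a replicate block and leaving out each sample were alternatives. Cluster sums are described without a test. Code was tested on simulated data. Named were the C-type genes, the 3 members of most reads in each of the alpha, beta, gamma A and gamma B groups, members called in any comparison, the beta genes of the HD signature, and listed partner and regulator genes that were called.

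Samples held 252885 to 1496196 reads, 202664 to 1349108 of them counted on known genes. The members lie on a chromosome of which no sequence is reported here. One gene of the cortical excitatory marker list is not reported here, and the list is given without it.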

Additional observations from a re-analysis of the deposited data

Results flagged for a closer look

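The alpha sum of cortex R6/2 4, at 131 CPM, stood apart from the other 3 samples of its group, at 76.9 to 83.1 CPM, with a gap of 0.887 of the group's whole range, above the 95% limit of Dixon's test for 4 samples. Of the 16 groups of cluster sums examined, 1 passed that limit, and chance alone passes about 1 in 20. In that sample 16 reads were on Pcdha11 (ENSMUSG00000102206), against 0 to 7 in the other samples of the group.

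The genomic class, which the comparisons left out, held 353 reads of Pcdhgc5 beside its 340 counted reads, and 339 of them were on 1 unspliced isoform of 1742 nucleotides. An unspliced isoform has no junction, so these reads were assigned to Pcdhgc5 without a junction that ties them to it. With these reads, Pcdhgc5 ran from 54.7 to 117 CPM in cortex NT and from 41.2 to 52.2 in cortex R6/2, and from 68.0 to 102 CPM in striatum NT and from 46.9 to 67.6 in striatum R6/2, with no overlap between the genotypes in either region. Pcdhac2 had 129 reads in that class beside 243 counted reads.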

How the results depend on the processing

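Under every alternative run, beta in both regions and C-type in cortex kept their direction and lack of overlap between genotypes. Alpha likewise kept its lack of overlap between regions. One alternative, chosen after seeing the data, left out ISM reads and reads on ENSMUST00000192875. It kept the isoforms with a short opening exon. On the log2 scale, leaving out each sample gave 0.66 to 0.88 for beta in striatum, 0.37 to 0.49 for beta in cortex and -0.74 to -0.49 for C-type in cortex. With the striatal samples of 1 count set, striatum against cortex gave -1.24 for C-type in NT, -1.74 for alpha in R6/2 and -0.54 for gamma in R6/2. Members called in cortex numbered 1 with the genomic class and 0 to 1 over leave-outs (1 without cortex NT 3). Between regions in NT, where 2 were called, the count was 4 with no filter (Pcdha9 and both Pcdha11 genes lower, Pcdhb16 higher), 1 with at least 5 reads in 4 samples (Pcdhga7 higher), neither setting calling Pcdhac2 or Pcdhgc5, 0 with the genomic class, without the count-set term and in DESeq2, and 0 to 2 over leave-outs: 1 without striatum NT 3, cortex NT 2 or cortex NT 3, and 0 without striatum NT 4, striatum R6/2 3 or 4, cortex NT 1 or 4, or cortex R6/2 2. In R6/2, where 1 was called, it was 5 with no filter (Pcdha7, Pcdha9 and Pcdhgb6 lower, Pcdhb9 and Pcdhb16 higher), 1 with at least 5 reads in 4 samples (Pcdhb9 higher), 0 with upper-quartile scaling, the genomic class, the first count set only, no count-set term and DESeq2, and 0 to 2 over leave-outs. Pcdhac2 lost that call without striatum NT 1 or 4, striatum R6/2 2 or 4, cortex NT 1, or cortex R6/2 2, 3 or 4. Pcdhb9 was called higher in striatum without striatum NT 1 or 4, cortex NT 1 or 4, or cortex R6/2 2. A replicate block, fitted although same-numbered samples are not stated to be paired and not every pair of them correlated above 0.1, left 1 call in NT and 0 in R6/2 and changed no call in the other comparisons. Signs turned for Pcdhac2 in striatum with the genomic class (0.0072), for Pcdhgc5 between regions in R6/2 with the genomic class (0.43) and without the count-set term (0.17), and for the Pcdhac2 interaction with no filter (-0.0024) and over leave-outs (-0.13 to 0.23). The cause was not tested. Most members held too few reads for a test of single genes.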
